A study of Mus musculus with 4 samples.

Results

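Cells judge the load of unfolded protein in the endoplasmic reticulum (ER) with sensors in its membrane, and 10 mouse genes of this pathway are described here: the sensors Ern1 (IRE1), Atf6, Atf6b and Eif2ak3 (PERK), the IRE1 substrate Xbp1, and the ER degradation genes Herpud1, Syvn1, Sel1l, Edem1 and Derl1. They were measured by all probe sets of an Affymetrix array that its annotation ties to exactly 1 gene symbol, where that symbol is one of the 10. This gave 31 of the 45101 probe sets and 10 of the 18193 genes on the array. The samples were HL-1 cells, a mouse line derived from atrial muscle that goes on beating in a dish. Rapid electric stimulation at 300 beats per minute for 24 h was given to 2 samples, while the 2 control samples beat on their own without it. Both groups were the same line, grown to confluence in the same supplemented Claycomb medium on gelatin and fibronectin. No group was paced at the slower rate of the controls, so the faster rate and the electric field cannot be told apart, and the labels number the stimulated samples as experiments 1 and 2 without saying whether cultures were grown separately.

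IRE1, ATF6 and PERK are the sensors of the unfolded protein response. When activated, IRE1 cuts Xbp1 mRNA so that it can be joined into the form that encodes an active transcription factor, ATF6 is cut in the Golgi to release another, and PERK phosphorylates the initiation factor eIF2 alpha, which slows translation while favouring that of ATF4. ER-associated degradation draws misfolded proteins back through the membrane for ubiquitination by the ligase Hrd1, the product of Syvn1, and for destruction by the proteasome. In muscle the same membrane system also forms the sarcoplasmic reticulum, which stores the calcium of each beat. The array measured mRNA by probe set and shows neither the cutting of Xbp1 mRNA nor the phosphorylation or cleavage of the proteins.

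The values are log2 RMA values, so that a difference of 1 is a doubling. Apart from differences within each array between Ern1 probe sets, probe sets are not compared with each other in level. Array medians lay between 4.96 and 5.01, the stimulated arrays correlated at r = 0.989 and the control arrays at r = 0.992 across the 13058 genes tested, and arrays of different groups at 0.968 to 0.975. Each gene was represented by its probe set with the highest mean, and genes averaging under 4.39, the 40th percentile, were not tested. Of the atrial myocyte markers 8 of 8 reached this level, among them Myl7 at 13.45 and 13.72 in stimulated cells and 13.85 and 13.84 in control cells, and 7 of the 8 had a negative change. Both stimulated arrays lay below both control arrays in 6 of the 8, where 27.7% of all genes tested did so, and the median change of the 8 was -0.24. Nppa rose by 2.00 and Ryr2 fell by 0.85, while Myh6 (-1.03) and Sln (-1.78) did not pass. On other tested probe sets Myh6 differed by -2.89, Tnnt2 by -1.24 and -0.16, Ryr2 by -0.68 and Myl4 by -0.33. Of the markers of other cell types the level for testing was reached by 4 of 7 for fibroblasts, 1 of 6 for endothelium, 5 of 6 for leukocytes and 3 of 4 for smooth muscle. Of the tested markers of other cell types, Cd68 was the only one called by limma. The summed log2 values of the 6 leukocyte markers were 32.84 to 33.03 in stimulated cells and 28.96 to 31.74 in control cells. Those of the fibroblast, endothelial and smooth muscle lists overlapped between the groups. Among the leukocyte markers Csf1r differed by 0.89 with overlapping arrays, Cd3e by 0.072, Lyz2 by -0.068 and Adgre1 by -0.32, and none of these passed. In this list Cd68 rose by 2.08 ± 0.23 (SE, limma adjusted p = 0.0187), at 6.34 and 6.59 in stimulated cells and 4.07 and 4.70 in control cells. Its control mean of 4.386 lay just under the level for testing, which Cd68 reached through its higher stimulated values. Ptprc, the marker of all leukocytes, read 3.23 and 3.19 in stimulated cells and 3.04 and 3.51 in control cells. RNA came from whole cultures, so fewer cells of a type and less RNA per cell cannot be told apart, and the part of other cells in the results below was not tested.

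Of the 10 genes, Ern1 and Herpud1 rose with rapid stimulation and none fell. Ern1 rose 4.88-fold and Herpud1 2.03-fold. The other 8 genes did not pass the test, and their changes lay between -0.089 and 0.36 on the log2 scale. A gene is said to have risen or fallen, or to be called, where its adjusted p was under 0.05. Among all genes tested 3.91% were called higher and 1.62% lower in stimulated cells. The median change of the 10 genes was 0.30, beside -0.0056 for all genes tested, and 9 of the 10 changes were positive. An unadjusted p under 0.05 was reached by 3 of the 10, Ern1, Herpud1 and Atf6, a share near the 25.6% of all genes tested, which holds both directions. Both stimulated arrays lay above both control arrays in 5 of the 10 genes (Ern1, Atf6, Herpud1, Syvn1 and Sel1l), where 27.6% of all genes did so, and both lay below them in 0 of the 10, where 27.7% of all genes did so.

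**Figure D1:**
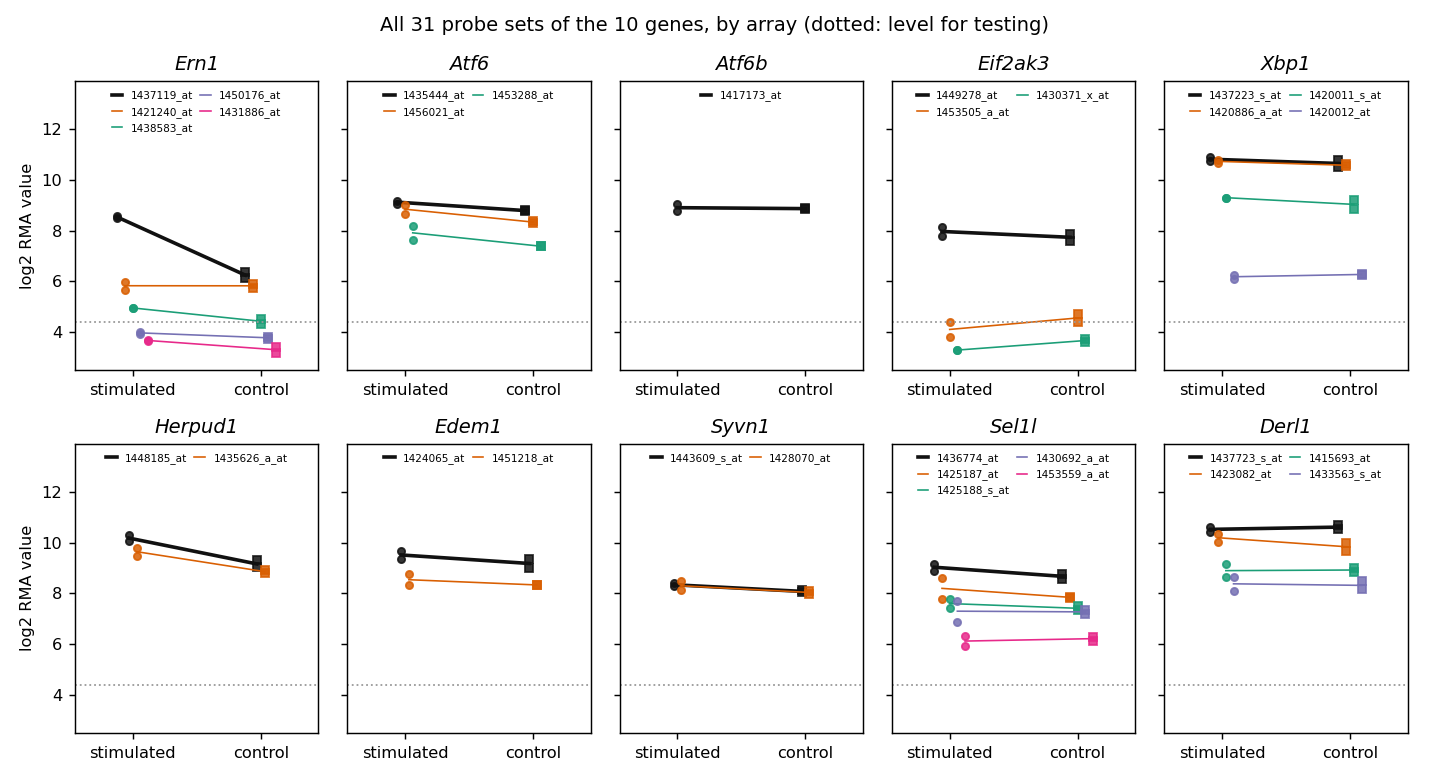
The log2 RMA value of every probe set of the 10 genes is plotted by array, stimulated arrays as circles on the left and control arrays as squares on the right. Lines join the group means, the thick line belongs to the probe set that represents the gene, and the dotted line is the level for testing at 4.39. Ern1 on 1437119_at and both Herpud1 probe sets show the largest changes, with stimulated arrays clear of the control arrays. The groups also lie apart on other probe sets, among them all those of Atf6 and Syvn1. The second Ern1 probe set is level at 5.83 in both groups.

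Ern1 encodes IRE1, the kinase and endoribonuclease that cuts Xbp1 mRNA. On its probe set 1437119_at it read 8.57 and 8.50 in stimulated cells, against 6.37 and 6.12 in control cells. The groups were thus separated by over 2 units, and the arrays within each group lay close together. The change was 2.29 ± 0.14 (SE, 95% interval 1.95 to 2.63, limma adjusted p = 0.00398).

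The other Ern1 probe sets did not show a change of that size. On 1421240_at Ern1 read 5.99 and 5.67 in stimulated cells and 5.90 and 5.75 in control cells, so that the groups overlapped (adjusted p = 0.997 among all probe sets). On 1438583_at Ern1 read 4.94 and 4.97 in stimulated cells and 4.52 and 4.34 in control cells, which do not overlap, but the change of 0.52 ± 0.13 did not pass (adjusted p = 0.0869 among all probe sets). The remaining pair, 1450176_at and 1431886_at, lay below the level for testing and differed by 0.19 and 0.36.

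Within each array, the value of 1437119_at exceeded that of 1421240_at by 2.58 and 2.83 in stimulated cells and by 0.47 and 0.37 in control cells. These differences do not overlap between the groups. With 2 arrays in each, the smallest two-sided p of an exact permutation test is 0.333, and no other test of the disagreement between the probe sets was run. Where on the Ern1 transcripts each probe set lies is not given in the sources used here. With the mean of all 5 probe sets in place of 1437119_at, the change of Ern1 was 0.67 (adjusted p = 0.0344). Ern1 passed in each of the 4 fits that left out 1 array, with adjusted p from 0.0199 to 0.0410.

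Atf6 encodes the membrane-bound transcription factor that is released by cleavage. It read 9.18 and 9.07 in stimulated cells, against 8.81 and 8.78 in control cells. The stimulated arrays were higher without overlap, yet the change of 0.33 ± 0.12 (95% interval 0.03 to 0.63) did not pass (adjusted p = 0.162). On its other probe sets Atf6 differed by 0.51 (1456021_at) and 0.53 (1453288_at), also without overlap, and stimulated replicate 1 was the higher of the stimulated arrays on all 3.

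Atf6b, the paralog of Atf6, was measured by 1 probe set. It read 8.77 and 9.04 in stimulated cells and 8.85 and 8.89 in control cells. The control values lay between the stimulated ones, and the 95% interval of the change was -0.31 to 0.39 (adjusted p = 0.909).

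Eif2ak3 encodes PERK. It read 8.15 and 7.79 in stimulated cells and 7.88 and 7.60 in control cells. The groups overlapped, with a change of 0.23 (95% interval -0.21 to 0.66, adjusted p = 0.486). Its other probe sets lay below the level for testing and differed the other way, by -0.45 (1453505_a_at) and -0.38 (1430371_x_at).

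Xbp1, the mRNA that IRE1 cuts, encodes a transcription factor for ER degradation and secretory pathway genes. On 1437223_s_at it read 10.90 and 10.73 in stimulated cells and 10.77 and 10.53 in control cells. The groups overlapped and the change was 0.17 (95% interval -0.19 to 0.53, adjusted p = 0.547). Its other 3 probe sets differed by 0.27 (1420011_s_at) and 0.15 (1420886_a_at), both without overlap, and by -0.091 (1420012_at), with overlap. None of them passed. The amount of total Xbp1 mRNA was therefore not shown to differ, and the cut form was not measured apart from it.

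Herpud1 encodes an ER membrane protein that takes part in assembling the Hrd1 degradation complex. On 1448185_at it read 10.29 and 10.07 in stimulated cells, against 9.30 and 9.02 in control cells. The lower stimulated array stood well above the higher control array. The change was 1.02 ± 0.16 (95% interval 0.64 to 1.40, adjusted p = 0.0300). On 1435626_a_at Herpud1 read 9.81 and 9.48 in stimulated cells and 8.93 and 8.79 in control cells, a change of 0.79 ± 0.16 in the same direction that did not pass among all probe sets (adjusted p = 0.0554). Herpud1 on 1448185_at failed the test in each of the 4 fits that left out 1 array, with changes of 0.88 to 1.16 and adjusted p of 0.0643 without stimulated replicate 2, 0.112 without control replicate 1, 0.123 without stimulated replicate 1 and 0.166 without control replicate 2.

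Syvn1 encodes the ubiquitin ligase Hrd1. It read 8.28 and 8.41 in stimulated cells and 8.12 and 8.05 in control cells. The arrays did not overlap, but the change of 0.26 (95% interval -0.05 to 0.57) did not pass (adjusted p = 0.262). On 1428070_at Syvn1 likewise differed by 0.26.

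Sel1l encodes the adaptor that stabilises Hrd1 and receives its substrates. It read 9.17 and 8.90 in stimulated cells and 8.76 and 8.58 in control cells. The groups did not overlap on this probe set (0.36, 95% interval -0.01 to 0.73, adjusted p = 0.207). On the other 4 Sel1l probe sets they overlapped, with changes of -0.096 to 0.35, and on each of the 5 stimulated replicate 1 was the higher stimulated array. The distance between the stimulated arrays of Sel1l was widest on 1430692_a_at, at 7.71 and 6.88, against 7.36 and 7.18 in control cells.

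Edem1 encodes a mannosidase-like protein that marks misfolded glycoproteins for degradation. It read 9.68 and 9.35 in stimulated cells and 9.37 and 8.99 in control cells. The groups overlapped, with a change of 0.34 (95% interval -0.12 to 0.79, adjusted p = 0.322) and 0.21 on its other probe set.

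Derl1 encodes derlin-1, a membrane protein of the retrotranslocation machinery. It read 10.42 and 10.63 in stimulated cells and 10.52 and 10.70 in control cells. The groups overlapped and the 95% interval of the change was -0.44 to 0.26 (adjusted p = 0.756). On 1423082_at Derl1 read 10.03 and 10.36 in stimulated cells and 9.69 and 9.99 in control cells, a change of 0.35 that did not pass (adjusted p = 0.291 among all probe sets), and on its other 2 probe sets it differed by -0.025 and 0.061.

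**Figure D2:**
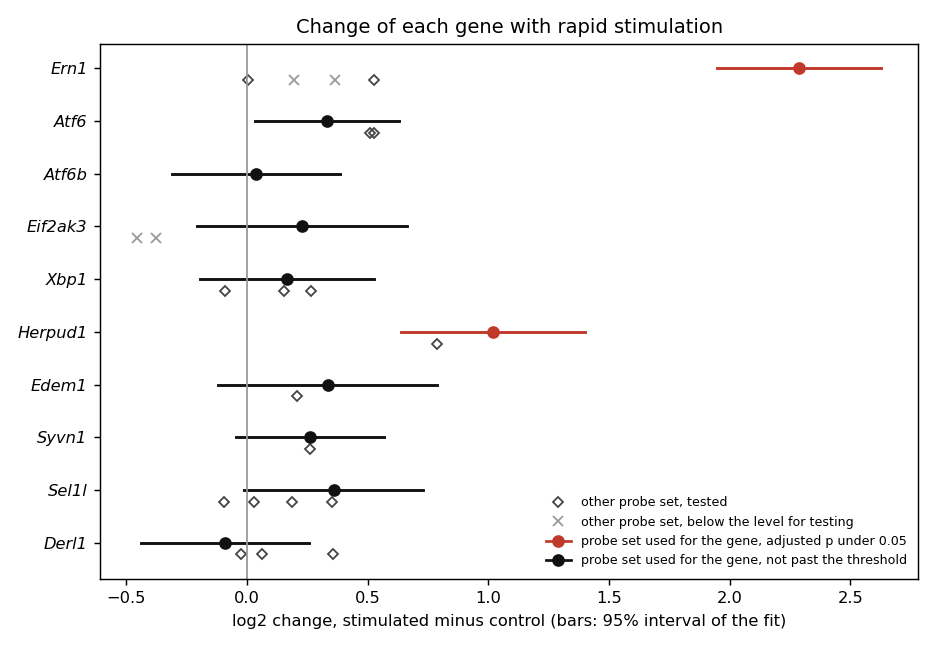
The log2 change, stimulated minus control, is plotted for each gene, as a filled circle with the 95% interval of the fit for the probe set that represents it. Open diamonds are its other tested probe sets and crosses those below the level for testing. The interval of Ern1 (1.95 to 2.63) lies above all others and that of Herpud1 (0.64 to 1.40) meets those of Eif2ak3, Edem1 and Sel1l, while the other Ern1 probe sets lie between 0.0028 and 0.52.

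Taken by probe set, 27 of the 31 passed the level for testing and 2 were called higher, the Ern1 probe set 1437119_at (adjusted p = 0.00644) and the Herpud1 probe set 1448185_at (adjusted p = 0.0349). None was called lower. Among all 27022 probe sets tested 2.46% were called higher and 1.38% lower. Of the 27, 23 had a positive change and 4 a negative one, with a median of 0.26 beside -0.019 for all probe sets tested. Probe sets of 1 gene share their transcripts and are not independent of each other. In the maker's naming, _a marks probe sets shared by transcripts of the same gene, _s those shared with other transcripts and _x those that may bind unrelated ones. Xbp1 (1437223_s_at), Syvn1 (1443609_s_at) and Derl1 (1437723_s_at) were each represented by an _s probe set.

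The sequence before the transcription start was available for 8 of the 10 genes in RefSeq's annotation of the mouse assembly GRCm38.p6, and 250 bases were searched on both strands. The letters searched were those of the ER stress elements bound by ATF6 and XBP1, namely ERSE (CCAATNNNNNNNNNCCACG) and ERSE-II (ATTGGNCCACG), the XBP1 and ATF6 site core (TGACGTGG, called UPRE) and the core of sites shared by ATF4 and C/EBP proteins (TGATGNAA). No 2 of these overlapped in the sequences shown. Herpud1 held ERSE-II on the strand of the gene, 52 to 42 bases before the start, and the ATF4 and C/EBP core as TGATGCAA on the opposite strand, 112 to 105 bases before it. Syvn1 held ERSE, 44 to 26 bases before the start. The other 6 genes, Ern1 among them, held none of the 4 in this window. ERSE-II was found in 10 of 32851 promoters (0.0304%), ERSE in 37 (0.113%), the UPRE core in 185 (0.563%) and the ATF4 and C/EBP core in 1134 (3.45%). The share of G and C in this window was 50.4% to 76.0% in the 8 genes, beside a median of 52.4% over all promoters. Shown 5′ to 3′ on the strand of the gene are the 250 bases before the start for the pair of genes that rose and for Syvn1, with the matches in capitals. They lie at chr8:94386179-94386428 (plus strand) for Herpud1, chr11:106487797-106488046 (minus strand) for Ern1 and chr19:6046326-6046575 (plus strand) for Syvn1.
Herpud1: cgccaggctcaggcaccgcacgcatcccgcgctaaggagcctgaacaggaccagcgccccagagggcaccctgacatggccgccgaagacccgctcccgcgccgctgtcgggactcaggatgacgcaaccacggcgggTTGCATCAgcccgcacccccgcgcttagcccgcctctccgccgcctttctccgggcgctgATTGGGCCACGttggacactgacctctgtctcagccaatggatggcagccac
Ern1: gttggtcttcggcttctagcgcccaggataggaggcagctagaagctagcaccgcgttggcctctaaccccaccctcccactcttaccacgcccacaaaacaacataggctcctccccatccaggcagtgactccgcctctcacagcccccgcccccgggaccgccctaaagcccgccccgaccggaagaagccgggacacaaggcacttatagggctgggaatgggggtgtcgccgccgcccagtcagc
Syvn1: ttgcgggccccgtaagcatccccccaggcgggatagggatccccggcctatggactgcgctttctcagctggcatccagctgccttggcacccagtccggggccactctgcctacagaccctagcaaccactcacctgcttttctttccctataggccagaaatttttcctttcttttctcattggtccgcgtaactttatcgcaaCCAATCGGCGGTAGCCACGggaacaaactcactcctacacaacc

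Calls among the genes that carry these letters are given as a description, beside the 3.91% called higher and 1.62% called lower among all genes. Of 16 tested genes with ERSE, none was called in either direction by limma, 1 had an unadjusted p under 0.05 (25.6% of all genes did), and the changes ran from -0.41 to 0.27 with a median of -0.081. Among them were the ER chaperone genes Hspa5 (0.27, adjusted p = 0.267), Hsp90b1 (-0.15), Pdia6 (-0.18) and Calr (-0.036). Of 7 tested genes with ERSE-II, Herpud1 and Rcl1, which encodes a ribosome assembly protein, were called higher (Rcl1 by 1.07 ± 0.14, adjusted p = 0.0250). Of 103 tested genes with the UPRE core 6 were called higher and 2 lower, and of 252 with the ATF4 and C/EBP core 19 were called higher and 4 lower, with median changes of 0.045 for the UPRE core and 0.030 for the ATF4 and C/EBP core. The listed pathway genes with TGATGNAA, beside Herpud1, were Atf3 (3.82), Chac1 (2.36) and Asns (1.31), which rose, and Nupr1 (1.96, adjusted p = 0.118), Yod1 (0.19), Faf2 (0.092) and Vldlr (0.091), which did not pass. A match of letters is a description of the sequence, not of binding.

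Companion genes of the pathway were read from 5 lists of general knowledge. The calls in each list stand beside 3.91% called higher and 1.62% called lower among all genes tested. The genes that carry out ER degradation besides the 5 above were 50, of which 48 were tested and 4 rose while none fell. Their median change was -0.051, and 16 of the 48 had an unadjusted p under 0.05, where 25.6% of all genes did. Rhbdd1, an intramembrane protease of the rhomboid family, read 10.82 and 10.77 in stimulated cells, against 9.60 and 9.53 in control cells, a rise of 1.23 ± 0.12 (adjusted p = 0.0149). Ubxn4, an ER protein that recruits the ATPase p97, rose by 1.02 ± 0.15 (adjusted p = 0.0290), Ube2g2, a ubiquitin-conjugating enzyme of ER degradation, by 1.08 ± 0.20 (adjusted p = 0.0419), and Ufd1, a cofactor of p97, by 0.65 ± 0.12 (adjusted p = 0.0416). On other probe sets Ubxn4 differed by 0.88 and 1.27, Ube2g2 by 0.79 and Ufd1 by 0.71. In these 4 genes, which were picked by their calls on the same arrays, both stimulated arrays lay above both control arrays. Of the 48 tested genes of the list 20 lay so, where 27.6% of all genes did, and 15 lay below, where 27.7% of all genes did. None of the 4 passed in a fit that left out any 1 array, and Ube2g2 did not pass with the mean of its probe sets (adjusted p = 0.0538).

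Of 20 genes known as ATF6 and XBP1 targets, mostly ER chaperone and folding genes, all were tested, 1 rose, none fell and the median change was -0.085. Sec61b stands in the ER degradation list too, and Dnajc3 in the list of sensor partners below. An unadjusted p under 0.05 was reached by 4 of the 20, where 25.6% of all genes reached it. The gene that rose was Dnajb9 (ERdj4), a cochaperone that recruits BiP, the product of Hspa5, to IRE1. Dnajb9 read 9.83 and 10.55 in stimulated cells and 8.79 and 9.002 in control cells (1.29 ± 0.25, adjusted p = 0.0442), and it did not pass without any 1 of the 4 arrays. Its change was 1.66 without stimulated replicate 1 and 0.93 without stimulated replicate 2.

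Of 23 genes for partners and processing of the sensors, 20 were tested, 2 rose, 1 fell and the median change was -0.057. Of the 20, 6 had an unadjusted p under 0.05, where 25.6% of all genes did. Ppp1r15a (GADD34), the stress-induced subunit that directs a phosphatase to eIF2 alpha, read 11.19 and 11.84 in stimulated cells, against 8.86 and 9.06 in control cells. It rose by 2.55 ± 0.23 (adjusted p = 0.0121), and its constitutive paralog Ppp1r15b rose by 0.67 ± 0.13 (adjusted p = 0.0467, and 0.12 on its other probe set). Ppp1r15a lost its call without control replicate 1, with a change of 2.46, and without control replicate 2, with a change of 2.65. Creb3l2, a membrane-bound transcription factor related to ATF6, fell by 1.18 ± 0.23, at 7.81 and 8.45 in stimulated cells and 9.17 and 9.44 in control cells (adjusted p = 0.0462, and -0.71 on its other probe set). The calls of Ppp1r15b and Creb3l2 were lost with no filter on low values (adjusted p = 0.0504 and 0.0524). They were also lost when all probe sets of a gene were averaged (0.40, adjusted p = 0.0980, for Ppp1r15b and -0.94, adjusted p = 0.0523, for Creb3l2) and in each fit that left out 1 array. Creb3l2 also lost its call with arrays centred on their median over all probe sets (adjusted p = 0.0509), and Ppp1r15b with centring over the tested genes (adjusted p = 0.0506).

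PERK is 1 of 4 kinases of eIF2 alpha, and of the other 3, all tested, none was called in either direction by limma and none had an unadjusted p under 0.05. Eif2ak2 (PKR) differed by -0.14 (adjusted p = 0.632), Eif2ak1 (HRI) by -0.11 (adjusted p = 0.689) and Eif2ak4 (GCN2) by 0.13 (adjusted p = 0.732). On the probe sets that stand for these genes, the arrays of the groups overlapped in all 3. Eif2ak2 differed more on its other 2 tested probe sets, by -0.64 and -0.48. Averaging its probe sets gave a change of -0.42, which did not pass (limma adjusted p = 0.163). The other 3 tested probe sets of Eif2ak1 had changes of -0.12 to 0.22.

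Of 14 genes of the PERK and ATF4 output, 10 rose, none fell and the median change was 1.64, where 3.91% of all genes tested rose and 1.62% fell. Ddit3 (CHOP) read 10.74 and 10.60 in stimulated cells, against 7.97 and 8.14 in control cells. Atf4 itself read 12.51 and 12.47 in stimulated cells and 11.22 and 11.24 in control cells, a rise of 1.26 ± 0.12 (adjusted p = 0.0144). On the other Atf4 probe sets the change ran from 0.21 to 1.33. The feedback pseudokinase Trib3 rose by 2.66, the glutathione-degrading enzyme Chac1 by 2.36, the transcription factor Cebpb by 2.33, Atf3 by 3.82 and asparagine synthetase, Asns, by 1.31. Ppp1r15a stands in this list too. These genes are also induced by the other eIF2 alpha kinases, and ATF4 targets were known to rise in these arrays before the list was written. The count of 10 was 4 without either stimulated array, 2 without control replicate 1 and 1 without control replicate 2.

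**Figure D3:**
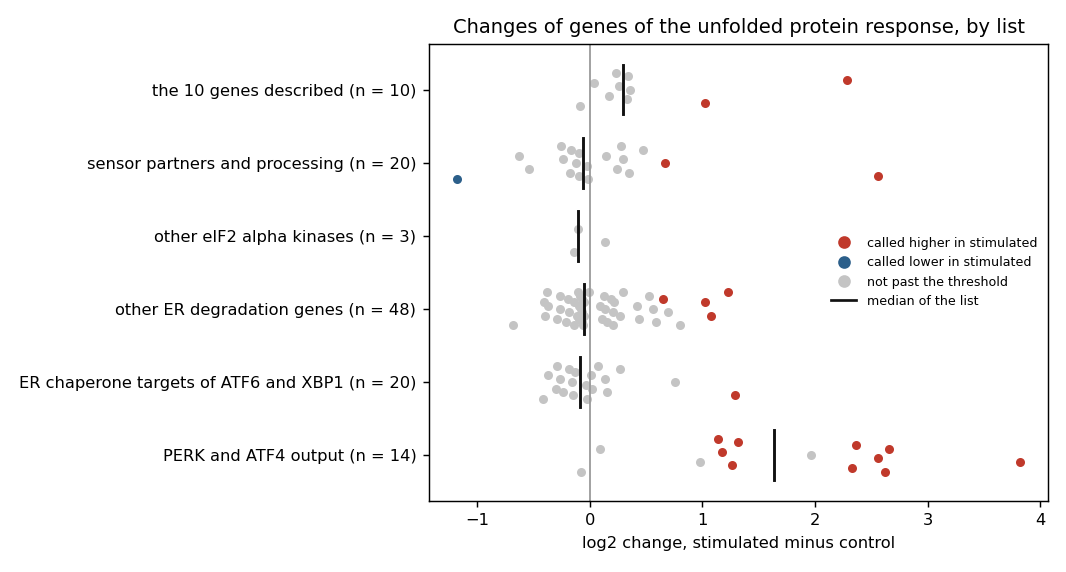
The log2 change, stimulated minus control, of each tested gene is plotted by list, with the median of each list as a vertical line and vertical scatter for legibility only. Red points were called higher and blue points lower in stimulated cells. The medians of the chaperone, partner, kinase and other ER degradation lists lie between -0.11 and -0.051, that of the 10 genes at 0.30 and that of the PERK and ATF4 output at 1.64.

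Of the 10 genes Ern1 had the smallest p. The 5 tested genes whose 4 values, each taken from its own mean over the arrays, ran closest to those of Ern1 were F3, Chac1, Dntt, Tex19.2 and Bid. Their root mean square distances over the 4 arrays were 0.136 (F3), 0.148 (Chac1), 0.151 (Dntt), 0.157 (Tex19.2) and 0.176 (Bid), and their changes lay between 2.01 and 2.36. F3, the closest, read 8.29 and 8.41 in stimulated cells and 6.18 and 6.22 in control cells. With 4 arrays in 2 groups, this likeness says little more than that the genes changed by a similar amount.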

How the data were processed

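RNA of 4 HL-1 samples was made into biotinylated cRNA, per the labels' protocols, with 1 Affymetrix array for each sample. The deposited values are on the log2 scale and were made with RMA (background correction, quantile normalization and probe set summaries), per the submitters' processing notes, with version and settings not given in the sources used here; scanner files were not used here. RMA compresses differences near the bottom and the top of the range.

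Symbols came from GEO's platform annotation, in which 34945 probe sets had exactly 1 symbol. Where several probe sets measured 1 of the 18193 genes, that of the highest mean stood for it, and genes reaching the 40th percentile of the probe sets that are no manufacturer's controls (4.39) were tested, 13058 genes in all. The same level left 27022 probe sets for a second fit. Both fits were two-sided limma tests (version 3.58.1, R 4.3.3, eBayes after lmFit) with Benjamini-Hochberg adjustment over all genes or all probe sets and a threshold of 0.05. The fit of genes was also tested on simulated data. Groups came from the sample titles, without a block. With 2 arrays a group, their number limits the precision, and a p-value here reflects only how far these samples spread, possibly for technical reasons. In eBayes the spread of each gene or probe set is drawn towards that of all those tested. Control samples were numbered in accession order. Means of all probe sets, other filters and centrings, an intensity trend and leaving out each array were tried.

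The genes named were the 10, with all their probe sets, called genes of each list (at most 8 by p, or 3 where none was called), the markers and the 5 genes closest to the gene with the smallest p. Genes that hold ERSE or ERSE-II letters, and Nupr1, Yod1, Faf2 and Vldlr, were named after their values were seen. The 10 genes and the lists were chosen with earlier results of these data known. Listed genes without a probe set of exactly 1 symbol were not analysed here.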

Additional observations from a re-analysis of the deposited data

How the results depend on the processing

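Ern1 kept its direction and its call as a gene under all 10 alternatives, from 0.67 with the mean of all probe sets to 2.41, and Herpud1 under the 6 that kept all arrays. Leaving out 1 array in turn left 20 to 113 called genes of 722 (70 without stimulated replicate 1, 113 without stimulated replicate 2, 40 without control replicate 1, 20 without control replicate 2), 7 to 114 called probe sets of 1039 and 1 called gene of the 10, which was Ern1. Such a fit leaves 1 group with a single sample, which is assumed to vary like the other group. The same fits left 0 or 1 called of the 3 partner genes, 0 of the 4 other ER degradation genes, 0 of the 1 chaperone gene and 1 to 4 of the 10 genes of the PERK and ATF4 output. With no filter 1 partner gene was called. The median of the 10 genes ran from 0.19 to 0.40 with 1 array left out. With each array centred on its median over the genes tested, an alternative chosen after seeing the data, 55.3% of the calls were higher in stimulated cells, beside 70.6% in the values as deposited, and the 10 genes kept their 2 calls.

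Signs turned only in results that were never called. With the mean of all probe sets, the change of Eif2ak3 was -0.20 and that of Derl1 0.075, and with centring over the tested features that of Atf6b was -0.025 and that of the Ern1 probe set 1421240_at -0.012. With 1 array left out, the ranges were -0.097 to 0.17 for Atf6b, -0.19 to 0.013 for Derl1 on 1437723_s_at, -0.29 to 0.24 on 1415693_at and -0.21 to 0.33 on 1433563_s_at, -0.15 to 0.16 for Ern1 on 1421240_at, -0.046 to 0.75, -0.39 to 0.44 and -0.29 to 0.099 for Sel1l on 1425187_at, 1430692_a_at and 1453559_a_at, -0.0028 to 0.42 for Edem1 on 1451218_at and -0.082 to 0.35 for Eif2ak4. The Ern1 probe set 1437119_at fell short among probe sets without control replicate 2 (2.16, adjusted p = 0.0786), and Herpud1 on 1435626_a_at passed with the 60th percentile filter (adjusted p = 0.0417), centring over all probe sets (0.0479) and the intensity trend (0.0471). The cause of these shifts was not tested. No paired analysis was possible because the labels of the control samples carry no replicate numbers. As numbered here, replicate 2 differed from replicate 1 in the same direction in both groups for every gene described except Syvn1. Edem1, for example, read 9.68 and 9.35 in stimulated cells and 9.37 and 8.99 in control cells. The fits count such a shared shift as spread within the groups. Whether like-numbered arrays belong together was not tested.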
